A study of Mus musculus with 20 samples.

Results

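Glutamate and GABA receptor subunits were examined in whole mouse brain as 35 genes of 18193 with a named probe set. They were chosen by a rule on gene symbols, as the AMPA (Gria), kainate (Grik), NMDA (Grin), delta (Grid) and metabotropic (Grm) glutamate receptors, the GABA-A subunits (Gabra, Gabrb, Gabrg, Gabrd, Gabre, Gabrq) and the GABA-B receptor (Gabbr). Earlier results of these data were known when they were chosen. These genes had 76 probe sets, sets of short probes that together measure 1 transcript, and the probe set with the highest mean signal stood for its gene. Of the 35 genes, 33 were bright enough to test: 15 of 16 ionotropic glutamate receptor genes, 6 of 6 metabotropic ones and 12 of 13 GABA receptor genes.

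The mice were C57BL/6J, either 8 weeks or 2 years old, and either wild type or alpha7-/-, that is, without a working alpha7 subunit, 1 of the proteins that form nicotinic acetylcholine receptors. Each of the 4 combinations held 5 mice, and each brain was measured on an array of its own. The labels used here give neither the way in which alpha7 was lost nor the sex of the animals. The study set aging beside alpha7 deficiency, so the comparisons are of age, of genotype, and of the age effect between genotypes.

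Glutamate and GABA carry most fast excitation and inhibition in the brain. AMPA, kainate and NMDA receptors are cation channels of 4 subunits, and GABA-A receptors are chloride channels of 5 subunits, drawn from families of genes whose products mix. Metabotropic glutamate receptors and the GABA-B receptor act through G proteins instead: group I, here Grm5, mainly raises calcium in the postsynaptic cell, while groups II (Grm2, Grm3) and III (Grm4, Grm6, Grm7, Grm8) lower cAMP and mostly dampen transmitter release. Which subunit is used differs between brain regions. Gabra6 in particular is a mark of cerebellar granule cells, the small neurons of the cerebellum.

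Chrna7, the gene of the alpha7 subunit, followed the labels. Its log2 signal lay between 8.35 and 9.16 in wild-type arrays and between 5.20 and 6.41 in alpha7-deficient ones, and it fell by 3.08 averaged over ages (SE 0.127, limma, adjusted p = 2.2e-13). Neuronal markers were bright on all 20 arrays, with a summed signal of 10 genes between 39977 and 49038. Several features of single arrays bear on what follows. Replicate 5 of the young wild-type group and replicates 1 and 2 of the aged alpha7-deficient group have label numbers far from the rest, and among the other animals every young number lies above every aged one, so a batch that followed the animal numbers cannot be told apart from age. The summed signal of 6 granule cell markers was lowest on aged alpha7-deficient replicate 1 (3999) and young wild-type replicate 4 (4636), followed by aged alpha7-deficient replicate 2 (6313) and young wild-type replicate 5 (6530), against 7856 to 12730 on the other arrays. Pituitary markers summed to 30051 on young wild-type replicate 1 and 21927 on aged wild-type replicate 3, against 242 to 1832 elsewhere.

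Metabotropic receptors were the class in which the largest share of genes fell with age. Averaged over genotypes, limma called 8 of the 33 tested subunits (24.2%, against 17.5% of all 13389 genes tested) at an adjusted p under 0.05. Grik5 was the only one to rise (9.12% of all genes rose), and Grm4, Grm5, Grm7, Grm8, Gria4, Gabra2 and Gabra4 fell (8.42% of all genes fell). By class, 4 of 6 metabotropic genes were called (66.7%), against 2 of 15 ionotropic glutamate receptor genes (13.3%) and 2 of 12 GABA receptor genes (16.7%), the last of these shares near that of all genes. The median log2 difference, 2 years minus 8 weeks, was -0.32 for metabotropic, -0.13 for ionotropic and -0.10 for GABA receptor genes, and 0.0031 over all genes. Of the 33 subunits 27 had a negative difference, 15 had an unadjusted p under 0.05 (32.1% of all genes did), and for 0 did the 10 aged and 10 young arrays not overlap (0.762% of all genes). The difference between classes was not tested. In whole brain, fewer cells of a type and less RNA per cell cannot be told apart.

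**Figure D1:**
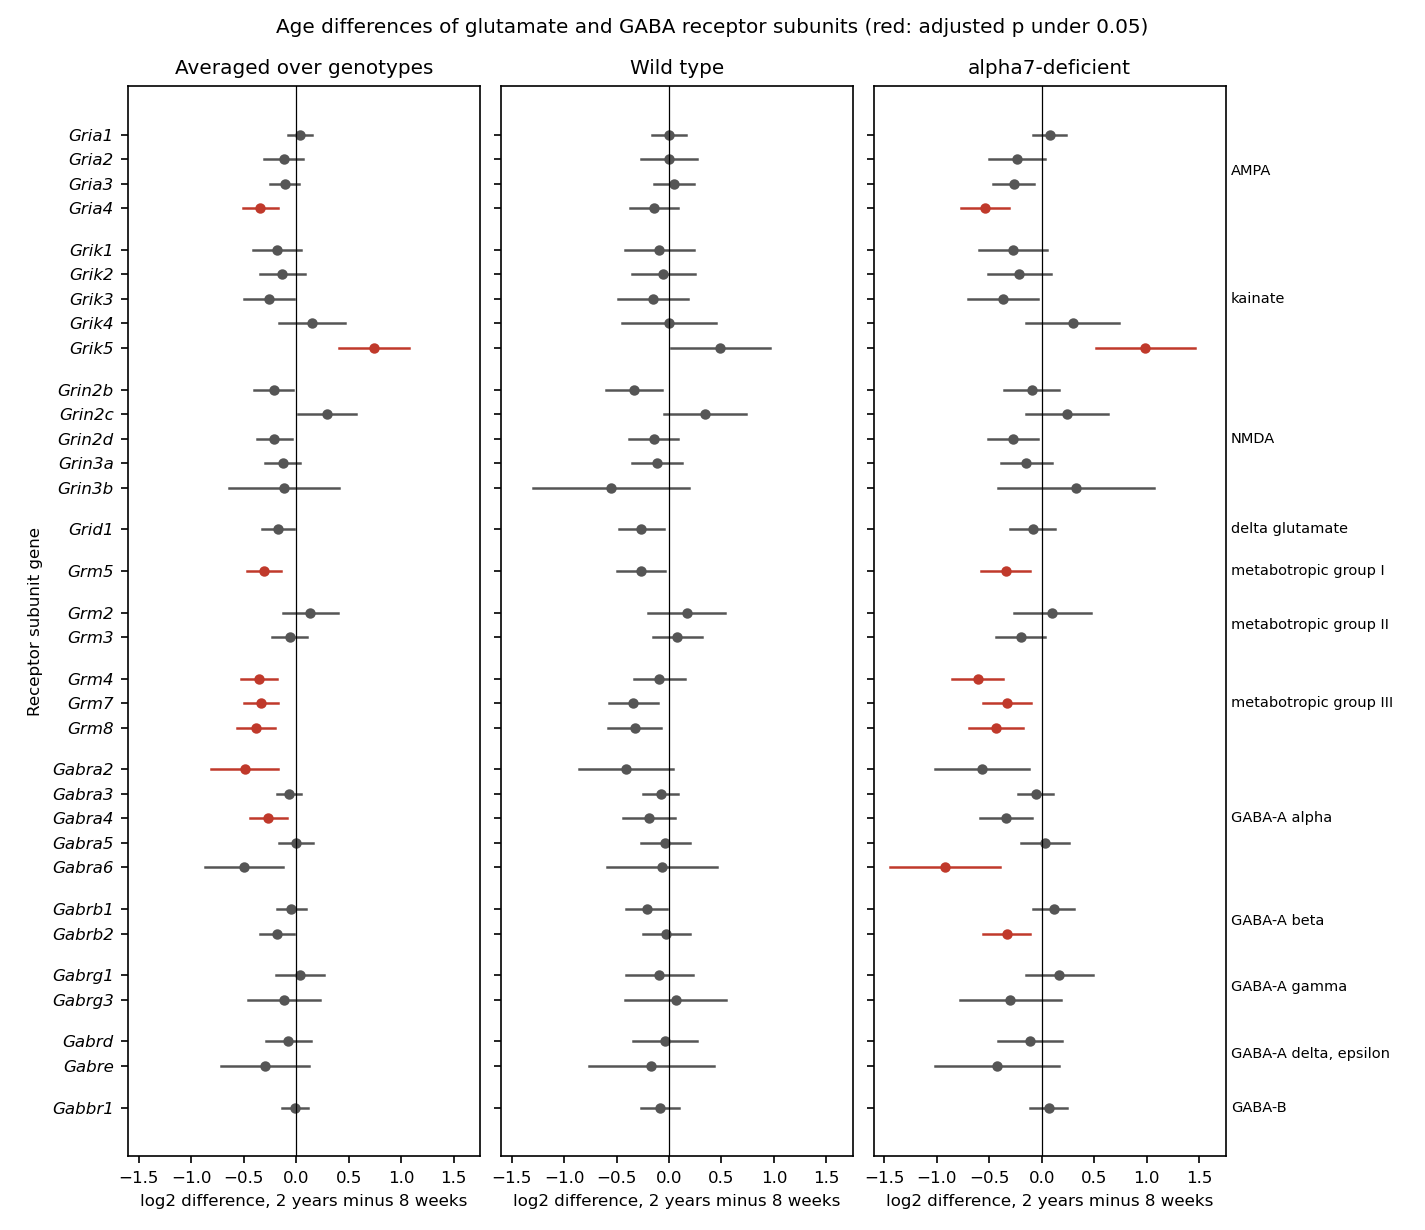
Log2 difference between 2 years and 8 weeks (x axis, points, with 95% intervals as lines) for each of the 33 tested receptor subunit genes (y axis), grouped by receptor class, averaged over genotypes (left), in wild type (middle) and in alpha7-deficient brains (right). Red marks an adjusted p under 0.05: 8 genes on the left, 0 in the middle and 8 on the right, with 3 of 3 group III metabotropic genes red on the left and on the right.

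All 3 tested group III receptors fell with age. These receptors sit mostly on presynaptic terminals, where glutamate that reaches them reduces further release. Grm8 (probe set 1421530_a_at, chromosome 6) read 7.04, 6.87, 6.92, 6.89 and 7.28 on the young wild-type arrays in log2 signal, and 6.67, 6.63, 6.54, 6.78 and 6.74 on the aged ones. In alpha7-deficient mice it read 6.90, 6.67, 7.04, 6.95 and 6.94 at 8 weeks and 6.50, 6.54, 6.35, 6.45 and 6.47 at 2 years. The ages did not overlap within either genotype, and all 10 aged arrays lay below the median of the young ones. The difference was -0.38 (SE 0.0873, 1.30-fold lower, limma, adjusted p = 0.0049).

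Grm7 (1443119_at, chromosome 6), the group III receptor of the active zone, ranged from 9.27 to 10.08 at 8 weeks with a median of 9.52, and from 9.12 to 9.35 at 2 years with a median of 9.26. The aged arrays lay close together, with an SD of 0.08 for wild-type and 0.09 for alpha7-deficient brains (n = 5 each). Young wild-type replicate 4 was the highest of all 20. Grm7 fell by 0.34 (SE 0.0787, 1.26-fold, limma, adjusted p = 0.0059), and the differences within wild type (-0.34) and within alpha7-deficient mice (-0.33) were alike in size.

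Grm4 (1457299_at, chromosome 17), which is abundant at the parallel fibre terminals of granule cells, read 10.25, 10.38, 10.29, 9.59 and 9.91 in young and 9.96, 9.96, 9.92, 10.05 and 10.05 in aged wild-type brains. In alpha7-deficient brains it read 10.30, 10.21, 10.33, 10.46 and 10.31 at 8 weeks and 9.43, 9.64, 9.88, 9.86 and 9.75 at 2 years. The ages were apart in alpha7-deficient mice only. In wild type the young arrays lay on both sides of the aged ones, with replicates 4 and 5 below them. Averaged over genotypes Grm4 fell by 0.35 (SE 0.0827, 1.28-fold, limma, adjusted p = 0.0061), all 10 aged arrays lying below the young median of 10.30.

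Of groups I and II, Grm5 fell and the 2 group II genes were not called. Grm5 (1455272_at, chromosome 7), the group I receptor that couples to phospholipase C, ranged from 10.06 to 10.63 at 8 weeks (median 10.42) and from 9.67 to 10.25 at 2 years (median 10.11). It fell by 0.31 (SE 0.0784, 1.24-fold, limma, adjusted p = 0.011). Grm3, a group II receptor found on neurons and astrocytes, differed by -0.06 (SE 0.0796, adjusted p = 0.64), and Grm2 by 0.14 (SE 0.125, adjusted p = 0.49). The calls of Grm4, Grm5, Grm7 and Grm8 held when any 1 array was left out, with adjusted p between 0.00045 and 0.024. Grm5 has a second, dimmer probe set (1456119_at) with a difference of 0.17 (adjusted p = 0.37 among all probe sets), and over the mean of its probe sets the Grm5 difference was -0.07 (adjusted p = 0.55).

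**Figure D2:**
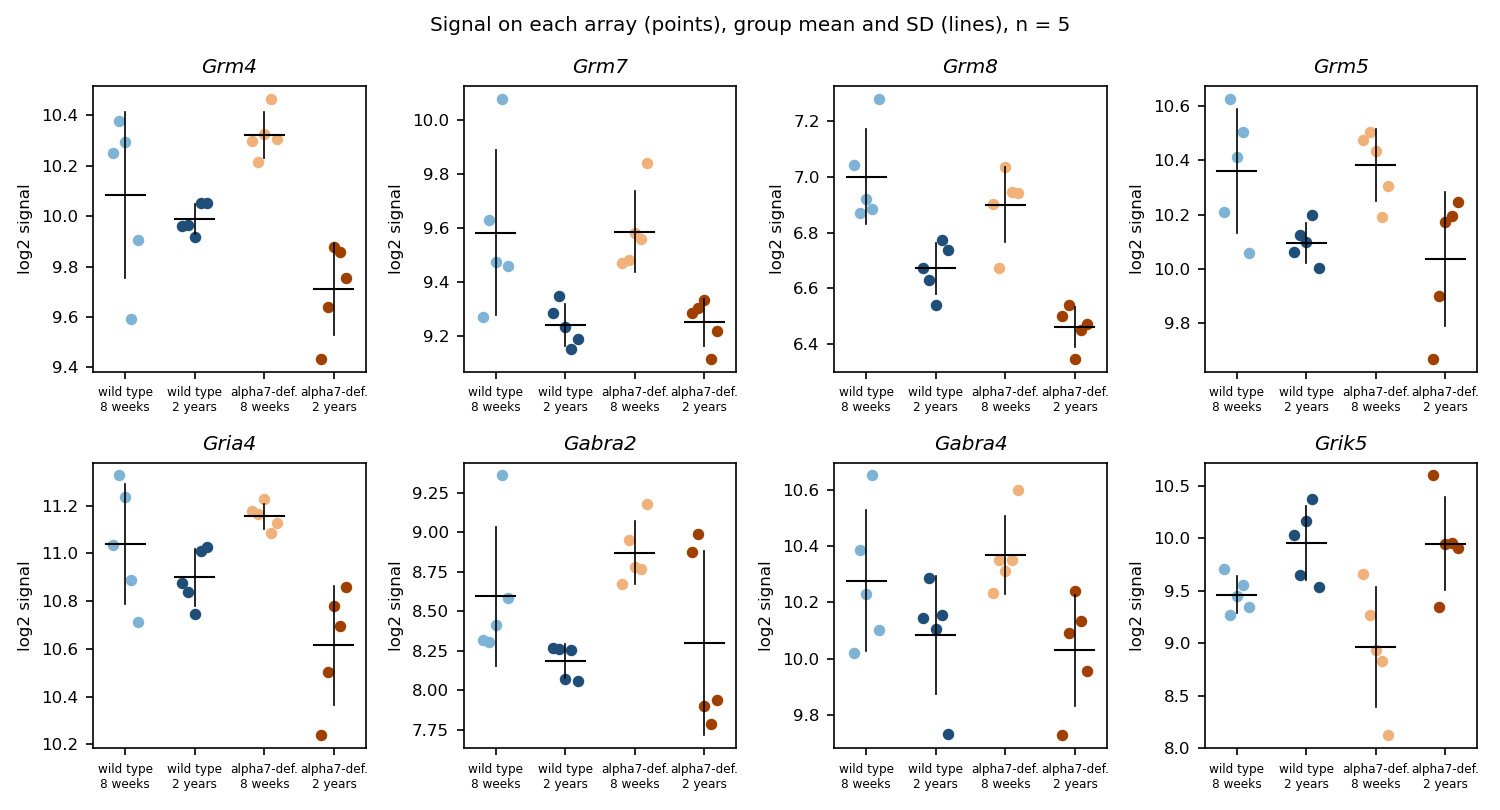
Log2 signal (y axis) of the 8 subunits called for age averaged over genotypes, 1 point per array, with the mean (horizontal line) and SD (vertical line) of each group of 5 (x axis). Grm8 separates the ages in both genotypes, Grm4, Grm7 and Gria4 separate them in alpha7-deficient mice and Gabra2 in wild type, and in aged alpha7-deficient mice Gabra2 splits into 2 arrays near 8.9 and 3 near 7.9.

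Among the AMPA receptor subunits, which form the channels of most fast excitatory synapses, only Gria4 was called. Gria4 (1435722_at, chromosome 9), a subunit prominent in cerebellum and in interneurons, read 11.03, 11.33, 11.24, 10.89 and 10.71 in young and 10.88, 10.84, 10.75, 11.01 and 11.03 in aged wild-type brains. In alpha7-deficient brains it read 11.18, 11.17, 11.23, 11.09 and 11.13 at 8 weeks and 10.24, 10.50, 10.78, 10.70 and 10.86 at 2 years. As with Grm4, the ages overlapped in wild type and were apart in alpha7-deficient mice. Gria4 fell by 0.34 (SE 0.0788, 1.27-fold, limma, adjusted p = 0.0055), kept its call with any 1 array left out, and had a second probe set (1440891_at) at -0.38 (adjusted p = 0.014). The third, a dim one (1421351_at), read 0.14, and over the mean of the 3 the adjusted p was 0.11. Gria1 differed by 0.04 (SE 0.0546), Gria3 by -0.11 (SE 0.0657) and Gria2, the subunit that makes the channel impermeable to calcium, by -0.12 (SE 0.0908), with adjusted p of 0.68, 0.26 and 0.39.

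Grik5 rose, and was the receptor subunit with the largest age difference on this scale. Its product is a high-affinity kainate subunit that forms channels together with Grik1, Grik2 or Grik3. Grik5 (1418784_at, chromosome 7) read 9.71, 9.27, 9.45, 9.55 and 9.35 in young and 10.04, 9.65, 10.17, 10.38 and 9.54 in aged wild-type brains. In alpha7-deficient brains it read 9.66, 9.27, 8.94, 8.83 and 8.12 at 8 weeks and 10.60, 9.35, 9.95, 9.95 and 9.90 at 2 years. The ages overlapped in both genotypes, but all 10 aged arrays lay above the young median of 9.31. The difference was 0.74 (SE 0.161, 1.67-fold higher, limma, adjusted p = 0.0038), and it stayed between 0.63 and 0.82 with any 1 array left out. The gene has 1 probe set, so no other was there to set beside it.

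No other kainate subunit was called. Grik3 differed by -0.26 (SE 0.114, adjusted p = 0.12) and became a call without young wild-type replicate 1, at -0.34 (adjusted p = 0.020). Grik1 differed by -0.18 (SE 0.111), Grik2 by -0.13 (SE 0.103) and Grik4, the other high-affinity subunit, by 0.15 (SE 0.152), with adjusted p of 0.27, 0.40 and 0.54. The delta receptor subunit Grid1, which binds cerebellins at the synapse, differed by -0.17 (SE 0.0730, adjusted p = 0.10), or -0.22 without young wild-type replicate 1 (adjusted p = 0.029).

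The NMDA receptor subunits that were tested, of the Grin2 and Grin3 groups that assemble with Grin1, gave no call through their brightest probe set. Grin1 itself was not among the genes that the symbol rule found. Grin2b, prominent early in development, differed by -0.21 (SE 0.0898, adjusted p = 0.10), Grin2d by -0.21 (SE 0.0802, adjusted p = 0.071) and Grin2c, which mature granule cells use, by 0.29 (SE 0.132, adjusted p = 0.13). Single arrays decided these: Grin2b was called without young wild-type replicate 5 (-0.25, adjusted p = 0.045) or aged alpha7-deficient replicate 5 (-0.26, adjusted p = 0.045). Grin2d was called without young wild-type replicate 5 (-0.24, adjusted p = 0.040) or aged wild-type replicate 1 (-0.24, adjusted p = 0.041). Grin2c was called without young wild-type replicate 1 (0.36, adjusted p = 0.049). Without the 3 animals with distant numbers Grin2b (-0.29, adjusted p = 0.040) and Grin2c (0.38, adjusted p = 0.048) were called as well. Grin3a differed by -0.13 (SE 0.0822) and Grin3b by -0.11 (SE 0.253), with adjusted p of 0.29 and 0.79. Grin2a lay below the filter, between 1.42 and 5.78 in log2 signal.

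For Grin2b and Grin3a the choice of probe set mattered. Every probe set of the subunits that passed the filter was also tested by itself, an alternative added after the data were seen. Of 62 such probe sets 12 fell and 1 rose, where 12.4% of all 27022 probe sets were called and 6.12% fell. Grin2b has 2 probe sets of nearly equal signal. Its second one, 1442370_at, ranged from 7.91 to 8.45 at 8 weeks (median 8.30) and from 7.45 to 8.01 at 2 years (median 7.81), a difference of -0.46 (SE 0.0761, adjusted p = 0.00065), while the brightest, 1457003_at, gave an adjusted p of 0.13 in the same fit. Grin3a likewise fell by 0.43 (SE 0.0808, adjusted p = 0.0019) on its second probe set, 1438866_at, from a median of 8.40 to 7.99, against -0.13 (adjusted p = 0.33) on the brightest, 1436575_at. Among the 18 genes with several probe sets that passed, 12 had differences of both signs, the positive ones mostly on dim probe sets. Probe sets can read different transcript ends or splice forms, and where each lies was not given in the sources used here.

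**Figure D3:**
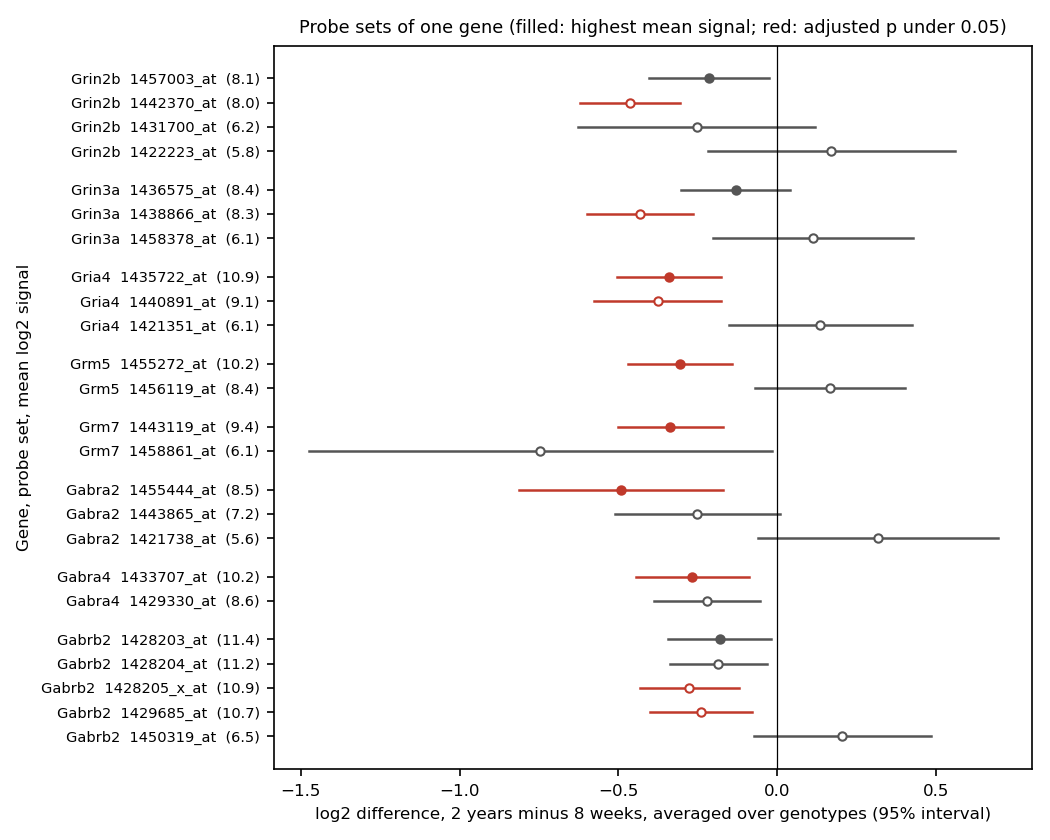
Log2 difference between 2 years and 8 weeks averaged over genotypes (x axis, with 95% intervals) for each probe set that passed the filter (y axis, with its mean log2 signal in brackets) of 8 subunit genes. Filled points are the brightest probe set of a gene and red marks an adjusted p under 0.05 over all 27022 probe sets; Grin2b and Grin3a are red on their second probe set only.

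Among GABA-A subunits 2 of 5 tested alpha genes fell and no beta, gamma, delta or epsilon gene was called. Alpha subunits form the GABA and benzodiazepine sites with their neighbours and set where in the neuron the receptor sits. Gabra2 (1455444_at, chromosome 5), the alpha subunit of many forebrain synapses, read 8.32, 8.31, 8.41, 9.36 and 8.58 in young and 8.27, 8.26, 8.07, 8.26 and 8.06 in aged wild-type brains. In alpha7-deficient brains it read 8.67, 8.95, 8.78, 8.77 and 9.18 at 8 weeks and 8.88, 8.99, 7.90, 7.79 and 7.94 at 2 years. The ages were apart in wild type, where the lowest young array was close above the highest aged one, and overlapped in alpha7-deficient mice through replicates 1 and 2.

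Gabra2 fell by 0.49 (SE 0.152, 1.41-fold, limma, adjusted p = 0.029). Without the 3 animals with distant label numbers, which include those 2 arrays, the difference was -0.71 (SE 0.124, adjusted p = 0.00092), and -0.995 in alpha7-deficient mice (SE 0.182, adjusted p = 0.0042). The call was lost, with adjusted p between 0.052 and 0.055, without young wild-type replicate 4, young alpha7-deficient replicate 5 or aged alpha7-deficient replicate 3, 4 or 5, each time with a difference between -0.45 and -0.40. Its dimmer probe sets read -0.25 and 0.32 with no call, and over their mean the difference was -0.14 (adjusted p = 0.32).

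Gabra4 (1433707_at, chromosome 5), an alpha subunit of receptors outside the synapse in thalamus and hippocampus, ranged from 10.02 to 10.65 at 8 weeks (median 10.33) and from 9.73 to 10.29 at 2 years (median 10.12). It fell by 0.27 (SE 0.0849, limma, adjusted p = 0.033). The call was lost, with differences of -0.26 to -0.22 and adjusted p of 0.051 to 0.064, when young wild-type replicate 2 or 4, aged wild-type replicate 5, young alpha7-deficient replicate 5, or aged alpha7-deficient replicate 1 or 5 was left out. It was also lost without the 3 animals with distant numbers (-0.25, adjusted p = 0.056), and with granule cell markers as a covariate (-0.25, adjusted p = 0.067). Its second probe set gave -0.22 (1429330_at, adjusted p = 0.076). Gabra3 differed by -0.07 (SE 0.0571) and Gabra5, the alpha subunit of hippocampal receptors outside the synapse, by -0.0026 (SE 0.0787), with 95% intervals of -0.19 to 0.05 and -0.17 to 0.16.

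Gabra6 (1417121_at, chromosome 11) had a difference as large as that of Gabra2 but a wider spread. It read 11.11, 11.32, 11.18, 9.75 and 10.54 in young and 10.57, 10.92, 10.74, 10.71 and 10.63 in aged wild-type brains. In alpha7-deficient brains it read 11.22, 11.17, 11.21, 11.31 and 11.58 at 8 weeks and 9.30, 10.31, 10.77, 10.66 and 10.83 at 2 years. The 4 arrays with the lowest granule cell marker sums were also the 4 lowest for Gabra6. Averaged over genotypes the difference was -0.49 (SE 0.180, limma, adjusted p = 0.059). It became a call without young wild-type replicate 4 (-0.62, adjusted p = 0.0088), young wild-type replicate 5 (-0.52, adjusted p = 0.047), or aged alpha7-deficient replicate 3 (-0.54, adjusted p = 0.046) or 5 (-0.55, adjusted p = 0.042).

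The remaining GABA receptor genes differed little or had wide errors. Gabrb2 differed by -0.18 (SE 0.0767, adjusted p = 0.11), or -0.22 without young wild-type replicate 5 (adjusted p = 0.041), and 2 of its 5 probe sets were called lower, 1428205_x_at at -0.28 (adjusted p = 0.019) and 1429685_at at -0.24 (adjusted p = 0.044). Gabrb1 differed by -0.05 (SE 0.0671), Gabrg1 by 0.04 (SE 0.110) and Gabrg3 by -0.12 (SE 0.164). Gabrd, the delta subunit of receptors outside the synapse, differed by -0.07 (SE 0.104) and Gabre by -0.30 (SE 0.202). Gabbr1, which holds the ligand site of the GABA-B receptor, differed by -0.01 (SE 0.0607), with a 95% interval of -0.14 to 0.12. Gabrq lay below the filter, between 1.29 and 4.05 in log2 signal.

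Genes of GABA-A subunits lie side by side in clusters. In the RefSeq annotation of GRCm38.p6, Gabrg1, Gabra2, Gabra4 and Gabrb1 follow each other on chromosome 5, with 1 other coding gene between Gabra2 and Gabra4, and the 2 alpha genes were the 2 of these 4 that fell. On chromosome 11 Gabra6 and Gabrb2 lie side by side, and neither was called averaged over genotypes. Promoters of called genes are shown because their age differences had the same sign or, for Grik5, the opposite one. Whether these genes share regulation was not tested. RefSeq promoter sequences matched 25 of the 35 genes and 6 of the 8 called. Grm4 and Grm5 had no sequence, and that of Gria4, which was called too, is not shown. Below are the 250 bases before an annotated RefSeq start (GRCm38.p6), written 5' to 3' on the strand of the gene, for the 2 group III genes Grm7 (chr6:110645262-110645511, plus strand) and Grm8 (chr6:28135147-28135396, minus strand), for the neighbours Gabra2 (chr5:71095850-71096099, minus strand) and Gabra4 (chr5:71658309-71658558, minus strand), and for Grik5 (chr7:25072370-25072619, minus strand). Capitals mark the GC box GGGCGG, which Sp factors bind, on either strand.
Grm7: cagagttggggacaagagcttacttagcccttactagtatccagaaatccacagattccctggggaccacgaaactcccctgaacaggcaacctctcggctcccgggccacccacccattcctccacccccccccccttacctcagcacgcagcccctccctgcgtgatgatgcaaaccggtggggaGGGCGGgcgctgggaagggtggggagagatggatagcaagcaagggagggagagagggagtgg
Grm8: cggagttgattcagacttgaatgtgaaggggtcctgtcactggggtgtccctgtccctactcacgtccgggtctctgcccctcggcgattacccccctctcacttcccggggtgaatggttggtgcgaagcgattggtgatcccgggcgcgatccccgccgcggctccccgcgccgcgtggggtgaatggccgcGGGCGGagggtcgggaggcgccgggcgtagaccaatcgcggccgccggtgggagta
Gabra2: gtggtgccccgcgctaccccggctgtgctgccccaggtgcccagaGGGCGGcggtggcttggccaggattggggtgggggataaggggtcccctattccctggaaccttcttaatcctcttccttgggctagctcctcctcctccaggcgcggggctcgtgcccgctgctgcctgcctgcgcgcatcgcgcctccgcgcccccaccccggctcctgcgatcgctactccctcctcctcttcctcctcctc
Gabra4: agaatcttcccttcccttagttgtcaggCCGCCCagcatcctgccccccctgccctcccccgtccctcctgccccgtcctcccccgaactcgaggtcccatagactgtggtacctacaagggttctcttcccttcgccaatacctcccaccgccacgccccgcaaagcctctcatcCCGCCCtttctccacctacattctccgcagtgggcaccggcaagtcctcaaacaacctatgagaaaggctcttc
Grik5: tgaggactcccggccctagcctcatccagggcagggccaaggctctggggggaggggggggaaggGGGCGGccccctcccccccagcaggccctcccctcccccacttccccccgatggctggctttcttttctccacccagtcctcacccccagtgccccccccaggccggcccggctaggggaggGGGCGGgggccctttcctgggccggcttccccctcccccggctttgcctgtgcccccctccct

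Each of the windows shown holds 1 or 2 GC boxes. The motif was in 5 of the 6 called genes with a sequence, in 15 of all 25 subunits matched and in 32.7% of all 32851 promoter windows of the same length, and Gria4 had none. The full cAMP response element TGACGTCA and the core of the NRF1 motif, searched on both strands, were in 0 of the 25 windows, against 1.55% and 3.74% of all windows. A letter match is a description and no match says nothing about the factor. The subunit windows held a median of 15 CpG pairs (0 to 42), against a median of 6 in all windows, and a median GC content of 62.8% against 52.4%.

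Within wild-type mice limma called 0 of 33 subunits for age, where 0.769% of all genes were called. At an unadjusted p under 0.05 it was 7 of 33, against 12.8% of all genes. These were Grm7 (-0.34, SE 0.111), Grm8 (-0.33, SE 0.123), Grm5 (-0.26, SE 0.111), Grin2b (-0.33, SE 0.127), Grid1 (-0.27, SE 0.103), Gabrb1 (-0.21, SE 0.0949) and Grik5 (0.49, SE 0.227), and their adjusted p lay between 0.18 and 0.37. The ages did not overlap for Gabra2 and Grm8 (2.97% of all genes did not). Without the 3 animals with distant numbers Grm5 became a call (-0.34, adjusted p = 0.041), where 1.87% of all genes were called.

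Within alpha7-deficient mice 8 of 33 subunits were called (24.2%, against 14.7% of all genes). At an unadjusted p under 0.05 it was 13 of 33, against 30.6% of all genes. Grik5 rose by 0.99 (SE 0.227, limma, adjusted p = 0.0074), where 7.82% of all genes rose. The other 7 fell, where 6.87% of all genes fell. Grm4 fell by 0.61 (SE 0.117, adjusted p = 0.0026), Gria4 by 0.54 (SE 0.111, adjusted p = 0.0040), Grm8 by 0.44 (SE 0.123, adjusted p = 0.021), Gabra6 by 0.92 (SE 0.254, adjusted p = 0.019), Grm5 by 0.35 (SE 0.111, adjusted p = 0.039), Gabrb2 by 0.34 (SE 0.109, adjusted p = 0.040) and Grm7 by 0.33 (SE 0.111, adjusted p = 0.047). The ages did not overlap for 6 subunits, Gabra6, Gria3, Gria4, Grm4, Grm7 and Grm8 (13.7% of all genes did not). Gria3 was just short of a call (-0.27, SE 0.0929, adjusted p = 0.055).

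Most of these calls were close to the threshold. The count was 5 without young alpha7-deficient replicate 1, 2, 3 or 5 or aged alpha7-deficient replicate 1 (8.34% to 11.4% of all genes), and 11 without young wild-type replicate 4 (17.3% of all genes). Grm7 kept its call in 3 of 20 such fits and Gabrb2 and Grm5 in 14 each, with adjusted p up to 0.12, 0.13 and 0.13. Gabra6 lost it without aged alpha7-deficient replicate 1 (-0.65, adjusted p = 0.059), and Grm8 without young alpha7-deficient replicate 3 (-0.40, adjusted p = 0.057). Grm4, Gria4 and Grik5 kept it in all 20. Without the 3 animals with distant numbers Grik5, Grm4, Gria4, Grm8 and Gabra2 were called, 5 in all, where 7.91% of all genes were.

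The age effect differed between genotypes for 0 of 33 subunits, as for 0 of all 13389 genes (0%). At an unadjusted p under 0.05 it was 5 of 33, against 8.01% of all genes. Grm4 differed by -0.52 (alpha7-deficient minus wild type, SE 0.165, 95% interval -0.86 to -0.17), Gria4 by -0.40 (SE 0.157), Gabra6 by -0.85 (SE 0.359), Gria3 by -0.32 (SE 0.131) and Gabrb1 by 0.33 (SE 0.134), each with a limma adjusted p of 0.60. Genes called within one genotype and not the other were thus not shown to differ between genotypes.

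In alpha7-deficient mice the granule cell marker sum was lower at 2 years, as were Gabra6, Grm4 and Gria4. Grin2c, which mature granule cells use too, was not lower there (0.24, limma, adjusted p = 0.40). The marker list, taken without Gabra6 itself, had 6 tested genes. Their summed signal ran from 9524 to 12730 in young and from 3999 to 9307 in aged alpha7-deficient mice, so the ages did not overlap there, and from 4636 to 10258 and 7856 to 9347 in wild type, where they did. By gene, 2 of the 6 were called lower in alpha7-deficient mice (6.87% of all genes) and 0 in wild type (0.284% of all genes). Averaged over genotypes 1 of 6 was (Neurod1, -0.46, SE 0.159, limma, adjusted p = 0.049), where 8.42% of all genes fell. The 6 genes did not move alike. Their differences ran from -0.95 to 0.39 in alpha7-deficient mice (median -0.53) and from -0.46 to 0.41 averaged over genotypes. Within wild type they ran from -0.02 to 0.52 (median 0.33), while Gabra6, Grm4 and Gria4 had negative differences there. Gabra6, Grm4 and Gria4, all used by granule cells, were each lowest on aged alpha7-deficient replicate 1, the array with the lowest sum. That was not particular to them. Gria2 (11.10), Gabrb2 (10.78), Grm5 (9.67), Gabra4 (9.73) and Grik2 (7.16) also had their lowest log2 signal of all arrays on it.

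With the log2 marker sum as a covariate, added after the data were seen, the age difference of Gabra6 in alpha7-deficient mice went from -0.92 to -0.16 (SE 0.0850, adjusted p = 0.27), that of Gria4 from -0.54 to -0.30 (SE 0.0963, adjusted p = 0.077) and that of Grm4 from -0.61 to -0.32 (SE 0.0869, adjusted p = 0.041). Grik5 there went from 0.99 to 0.72 (adjusted p = 0.10), and 3 subunits were called, Grm4, Gabra2 (-1.05, adjusted p = 0.0044) and Grin2c (0.64, adjusted p = 0.036), where 4.32% of all genes were. Without the covariate 14.7% of all genes were called there. Of the other subunits called without it, Grm5 went from -0.35 to -0.20 (limma, adjusted p = 0.33) and Gabrb2 from -0.34 to -0.15 (adjusted p = 0.43). Grm7 (-0.33 to -0.44) and Grm8 (-0.44 to -0.47) did not shrink, but lost their calls (adjusted p = 0.058 and 0.071). The marker sums of the ages did not overlap in alpha7-deficient mice, so the covariate cannot be separated from age in them. Gabra6 is itself a granule cell marker, so its smaller difference in this fit was partly fixed in advance. The same limit holds in part for Grm4 and Gria4, which granule cells use as well. With the covariate, the difference between genotypes of the Grm4 age effect went from -0.52 to -0.17 (SE 0.117). Averaged over genotypes Grm4 (-0.23, SE 0.0548, adjusted p = 0.0074) and Gria4 (-0.24, SE 0.0608, adjusted p = 0.011) stayed called and Gabra6 became a call (-0.18, SE 0.0537, adjusted p = 0.025), as did Grin2c upward (0.45, SE 0.106, adjusted p = 0.0073), where 15.5% of all genes were called. Gabra4 lost its call there. With the 2 lowest sums left out (replicate 1 of aged alpha7-deficient and replicate 4 of young wild-type mice) Grm4 fell by 0.38 (SE 0.0614, adjusted p = 0.00061), Gria4 by 0.31 (SE 0.0717, adjusted p = 0.0082) and Gabra6 by 0.49 (SE 0.0940, adjusted p = 0.0025), where 12.3% of all genes were called, and Gabra4 lost its call (-0.18, adjusted p = 0.11).

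**Figure D4:**
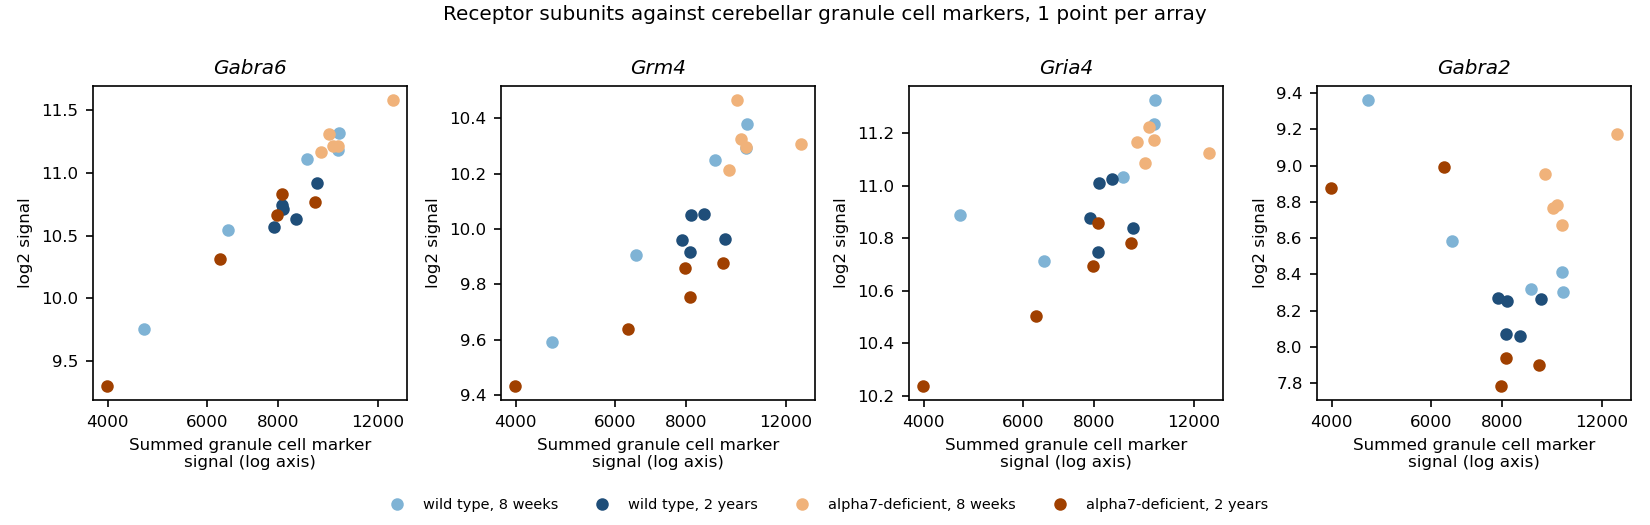
Log2 signal of 4 subunits (y axes) against the summed signal of 6 cerebellar granule cell markers without Gabra6 (x axis, log scale), 1 point per array, coloured by group. Gabra6, Grm4 and Gria4 are lowest on aged alpha7-deficient replicate 1, which has the lowest sum (3999), while Gabra2 is highest on young wild-type replicate 4, which has the second lowest (4636).

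No receptor subunit was called for genotype. Averaged over ages limma called 0 of 33, where 0.00747% of all genes were called (Chrna7 alone), and the log2 differences, alpha7-deficient minus wild type, ran from -0.25 to 0.23. At an unadjusted p under 0.05 there were 2, Grm3 (-0.22, SE 0.0796, 95% interval -0.39 to -0.06) and Grin2b (-0.19, SE 0.0898, 95% interval -0.38 to -0.0089), against 3.5% of all genes. At 8 weeks and at 2 years 0 of 33 were called (0.00747% of all genes each time) and 4 of 33 had an unadjusted p under 0.05 at each age (5.19% and 5.8% of all genes). The genotypes did not overlap for 1 subunit at 8 weeks (Gabrg3, 0.874% of all genes) and for 2 at 2 years (Grm4 and Grm8, 1.16% of all genes). The smallest of these p-values was that of Grm3 at 2 years (-0.36, SE 0.113, limma, adjusted p = 0.82).

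Within-array differences of 2 subunits, in which any shift of the whole array cancels, were tested for 2 of 5 planned pairs. Gria1 minus Gria2 was -1.34 ± 0.20 at 8 weeks and -1.18 ± 0.28 at 2 years (SD, n = 10 each), a change of 0.16 (exact two-sided permutation p = 0.17 over 63504 relabellings within genotype, 0.35 adjusted over the 2 pairs). It was 0.21 (exact permutation p = 0.035) without young wild-type replicate 5. Grin2b minus Grin2a was 3.27 ± 0.64 and 3.15 ± 1.14, a change of -0.13 (exact permutation p = 0.83). It was -0.85 within wild type (exact permutation p = 0.048) and 0.60 within alpha7-deficient mice (exact permutation p = 0.59), neither adjusted. All of these Grin2b minus Grin2a changes rest on a Grin2a signal below the filter, with wild-type means of 4.70 and 5.22 against a cut-off of 5.45. The alpha7-deficient change rests largely on aged replicate 4, where Grin2a read 1.42, against 4.47 to 5.78 on the other arrays of that group.

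Proteins that travel with these receptors were read from 4 lists. Of 18 auxiliary subunits and synaptic organizers 0 rose and 4 fell averaged over genotypes, where 9.12% of all genes rose and 8.42% fell: Neto2 (-0.48, SE 0.0842, limma, adjusted p = 0.00068), an auxiliary subunit of kainate receptors, Neto1 (-0.32, SE 0.0998, adjusted p = 0.029), which joins kainate and NMDA receptors, Shisa9 (-0.34, SE 0.100, adjusted p = 0.021), an AMPA receptor auxiliary subunit, and the organizer Cbln2 (-0.42, SE 0.0831, adjusted p = 0.0020), a ligand of delta receptors. The list's median was -0.17, against 0.0031 over all genes. Of 25 scaffold, trafficking and signalling genes 2 rose and 4 fell, with a median of 0.04. The share that rose was near that of all genes (9.12%), and 8.42% of all genes fell. Homer1 (-0.34, SE 0.0674, adjusted p = 0.0020), which tethers group I receptors, Grip1 (-0.40, SE 0.101, adjusted p = 0.0098), which binds AMPA receptors, and Gphn (-0.27, SE 0.0625, adjusted p = 0.0058), the gephyrin scaffold of inhibitory synapses, fell with Dlg2. Gabarapl1 (0.26, SE 0.0530, adjusted p = 0.0021) and Nsf rose.

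On the transmitter side, 2 of 14 transporter and enzyme genes rose and 1 fell, with a median of 0.11, against 9.12% and 8.42% of all genes. Slc32a1, the vesicular GABA transporter (0.40, SE 0.0663, adjusted p = 0.00048), and Gad2, a GABA-synthesising enzyme (0.28, SE 0.0862, adjusted p = 0.029), rose, while Slc17a6, a vesicular glutamate transporter of subcortical neurons, fell (-0.29, SE 0.0581, adjusted p = 0.0024). Of 6 other GABA and glycine receptor genes 1 fell, Glra2 (-0.42, SE 0.116, adjusted p = 0.016), where 8.42% of all genes fell. With lists this short, 1 or 2 calls do not set a list apart from all genes.

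Markers of other cells moved with age as well, and their part in the subunit differences was not tested. Averaged over genotypes 9.12% of all genes rose and 8.42% fell. Of 10 neuronal markers 1 rose (Snap25, 0.16) and 0 fell, and the neuronal sum ran from 39977 to 46840 at 8 weeks and from 44582 to 49038 at 2 years. Of 6 tested microglial markers 4 rose (Tyrobp by 1.26 and C1qa by 1.26 the most), with a sum from 4384 to 7429 at 8 weeks and from 5473 to 8043 at 2 years, and of 6 astrocyte markers 3 rose (Gfap by 0.91). The microglial sum of 7429 and the highest astrocyte sum of all arrays (25334) were both on young wild-type replicate 5, 1 of the 3 animals with distant numbers. The RNA quality measure, the log2 ratio of 3' to 5' Gapdh control probe sets, ran from 2.11 to 3.42 with a median of 2.50 at 8 weeks and from 2.22 to 3.17 with a median of 2.46 at 2 years.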

How the data were processed

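RNA from 20 whole brains was biotin-labelled and put on Affymetrix arrays, 1 brain each, per the labels' protocols. The deposited values are linear signal intensity per probe set, made by the authors with MAS5, per the submitters' processing notes. In the values, every array had the same trimmed mean of 250 (2% cut at each end). Medians were 61.3 to 78.9 and arrays correlated at r = 0.902 to 0.951. The number of arrays limits the precision.

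Of 45101 probe sets 34945 named 1 gene. Values were taken to log2 with no constant added. Probe sets with a mean at or above the 40th percentile (log2 of 5.45, signal 43.6) were kept, and the brightest stood for its gene, giving 13389 tested genes. limma 3.58.1 (R 4.3.3) fitted 4 group means over 20 arrays with lmFit and eBayes (trend), with Benjamini-Hochberg adjustment over all genes and calls at adjusted p under 0.05. SE is limma's standard error. The model was tested on simulated data with 200 changed genes, for age averaged over genotypes. It recovered 43.3% of 1.25-fold, 74.6% of 1.5-fold and 98.5% of 2-fold changes, and 3.36% of its calls were false. A subunit without a call is therefore not shown to be unchanged. Promoters and figures used Python 3.11.15. The labels number individual animals, and the 20 brains count as 20 samples.

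All subunits under the symbol rule were named, and Chrna7 to check genotype. From the lists of partner genes and cell type markers at most 5 called genes each were named. The members and lists were chosen with earlier results of these data known. Alternatives were other normalization, filters, added constants, probe set rules, weights, covariates and left-out arrays. Of 5 planned subunit pairs 3 were not analysed here.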

Additional observations from a re-analysis of the deposited data

Results flagged for a closer look

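A single array lay apart from the other 4 of its group, by Dixon's criterion at 95%, in 10 of 132 groups of 5 (33 subunits in 4 groups), in 9 genes. Chance flags about 1 in 20 groups. Values are log2 signal, given with the range of the other 4 arrays. In young wild-type mice Gabra2 read 9.36 on replicate 4 (8.31 to 8.58) and Grin3b 7.08 on replicate 4 (5.88 to 6.11). Replicate 4 is the array with the second lowest granule cell marker sum. Gria2 read 11.53 on replicate 5 (11.90 to 11.95), and Grik4 read 6.15 on replicate 1 (6.94 to 7.15), the array with the highest pituitary marker sum. In aged wild-type mice Gabrd read 8.69 on replicate 5 (9.03 to 9.09), Gria3 9.77 on replicate 5 (9.85 to 9.88) and Gabrg3 4.77 on replicate 3 (5.66 to 5.96). In young alpha7-deficient mice Gabbr1 read 11.39 on replicate 5 (11.74 to 11.88), Grid1 8.82 on replicate 5 (8.66 to 8.70) and Gria3 10.06 on replicate 2 (9.93 to 9.95). Of these genes Gabra2 alone was called for age averaged over genotypes.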

How the results depend on the processing

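Across 13 alternatives no subunit that was called changed direction. Grik5, Grm4, Grm7 and Grm8 kept their call for age averaged over genotypes in all 13, with adjusted p from 0.00015 to 0.046. The count of subunits lower at 2 years moved from 7 to 4 with the mean over a gene's probe sets, where Gabra2, Gria4 and Grm5 lost their calls, the metabotropic median was -0.21 and 6.14% of all genes were called lower. It moved to 12 with array weights, where 12.4% of all genes were. The cause was not tested. The count higher was 2 with the Gapdh 3' to 5' covariate, without the 3 animals with distant numbers, and with the granule cell covariate, Grin2c joining Grik5 each time and 11.1%, 9.84% and 8.01% of all genes being called higher. The wild-type count was 1 and the alpha7-deficient count 5 without those 3 animals (1.87% and 7.91% of all genes). Over the 13 alternatives the alpha7-deficient count ran from 3 with the granule cell covariate (4.32% of all genes) to 12 with the Gapdh covariate (18.9% of all genes). Grin2b minus Grin2a changed by -0.85 within wild type (exact permutation p = 0.048) and by 0.60 in alpha7-deficient mice (exact permutation p = 0.59), and both values rest on a Grin2a probe set below the filter. The second rests largely on aged alpha7-deficient replicate 4, where Grin2a read 1.42. Leaving out each array in turn, the higher count was 1 to 2 (2 without young wild-type replicate 1) and the lower count 5 to 11 (11 without young wild-type replicate 5, where 10.5% of all genes were called lower). The alpha7-deficient count was 5 to 11, and the wild-type, genotype and interaction counts were 0 to 0. The medians ran from -0.16 to -0.11 (ionotropic), -0.35 to -0.28 (metabotropic) and -0.14 to -0.08 (GABA). Grin2b minus Grin2a ran from -0.47 to 0.02 and Gria1 minus Gria2 from 0.11 to 0.21. No paired analysis was possible because the labels give no replicate numbers that the groups share. The dimmest tested subunits, Gabrg3, Gabre and Grin3b, had SE of 0.16, 0.20 and 0.25, so their differences were measured less precisely than those of most other subunits.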

Other observations

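Markers of other brain regions were read from lists too, averaged over genotypes, where 9.12% of all genes rose and 8.42% fell. Of 4 Purkinje cell markers 0 were called, and their summed signal was lowest on young wild-type replicate 4 (6818), then on replicate 1 of the aged alpha7-deficient group (10062), the 2 arrays also lowest in granule cell markers. Of 5 striatal and 5 pituitary markers 0 were called by limma. Of 5 hippocampal and forebrain markers 1 fell, Neurod6 (-0.40, SE 0.0882, limma, adjusted p = 0.0039), and of 3 olfactory bulb markers 1 rose, Cdhr1 (0.36, SE 0.109, limma, adjusted p = 0.027). Of 5 oligodendrocyte markers Mbp rose (0.26, SE 0.0581, limma, adjusted p = 0.0048) and Mog fell (-0.50, SE 0.109, limma, adjusted p = 0.0039). Without young wild-type replicate 1, which had the highest pituitary sum, 9 subunits were lower at 2 years and 2 higher, where 9.69% of all genes were called lower and 10.3% higher.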
